A study of Mus musculus with 12 samples.

Results

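HSP90 and its cochaperones are described here as 8 genes, chosen by symbol from the rows of an exon count table of mouse liver: Hsp90aa1, Hsp90ab1, Ahsa1, Stip1, Fkbp4, Chordc1, Cdc37 and Ptges3. All 8 were found among the 22618 genes of the table, and all 8 were among the 17142 genes that passed the filter on low counts. The livers came from male Cry1/2 DKO mice on the C57BL/6j strain, aged 12 to 16 weeks, fed at night and raised with a conventional gut flora. Cry1 and Cry2 encode the cryptochromes, which repress the CLOCK and BMAL1 transcription factors in the circadian clock. Every library carried this double knockout, the labels name neither the alleles nor whether each library is a separate animal, and wild-type libraries were not analysed here, so nothing below compares genotypes. Total RNA was sequenced at ZT02, ZT06, ZT10, ZT14, ZT18 and ZT22, where ZT is zeitgeber time in hours, with 2 libraries at each of the 6 time points. By convention the dark phase starts at ZT12, and night here means the 6 libraries of ZT14, ZT18 and ZT22 and day the 6 of ZT02, ZT06 and ZT10.

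HSP90 is the chaperone that takes partly folded clients, above all kinases and steroid hormone receptors, from HSP70 and matures them in a cycle driven by ATP. Mammals have a pair of cytosolic forms, of which Hsp90ab1 encodes the constitutive β form and Hsp90aa1 the stress-inducible α form. Cochaperones steer the cycle: Stip1 (HOP) bridges HSP70 and HSP90, Cdc37 loads kinases, Fkbp4 (FKBP52) is a peptidyl-prolyl isomerase of receptor complexes, Chordc1 (CHP-1, Morgana) is a zinc-binding partner, Ahsa1 (AHA1) speeds ATP hydrolysis, and Ptges3 (p23) binds the closed, ATP-bound form. Heat shock factor HSF1 drives many chaperone genes through heat shock elements, which are inverted repeats of the unit GAA. In mouse liver some heat shock genes are known to follow the daily cycle of feeding and body temperature.

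The genes lie on 6 chromosomes (GENCODE M21 annotation on GRCm38, which is mm10). Hsp90aa1 (ENSMUSG00000021270) is at chr12:110690605-110702728 on the minus strand and Hsp90ab1 (ENSMUSG00000023944) at chr17:45567775-45573271 on the minus strand. Ahsa1 (ENSMUSG00000021037) is at chr12:87266479-87273998 on the plus strand, Stip1 (ENSMUSG00000024966) at chr19:7020702-7039967 on the minus strand and Fkbp4 (ENSMUSG00000030357) at chr6:128429735-128438677 on the minus strand. Chordc1 (ENSMUSG00000001774) is at chr9:18292125-18317442 on the plus strand, Cdc37 (ENSMUSG00000019471) at chr9:21133222-21149982 on the minus strand and Ptges3 (ENSMUSG00000071072) at chr10:128058954-128077272 on the plus strand. All 8 are protein-coding.

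The α and β genes had to be told apart by their reads. Their coding sequences were identical at 76.6% of 2174 aligned bases, the longest identical stretch between the main transcripts was 33 bases, and no stretch of 100 bases, the length of a read, was shared. The last 60 coding bases, on the minus strand of GRCm38 and ending in the stop codon, show how the pair differs in sequence even where the protein ends are alike; capitals mark the 5 codons before the stop, which encode the tail that Stip1, Fkbp4 and other TPR-domain cochaperones dock on. They come from chr12:110691540-110691599 for Hsp90aa1 and chr17:45568015-45568074 for Hsp90ab1, and 46 of the 60 bases and 12 of the 15 bases in capitals were identical.
Hsp90aa1: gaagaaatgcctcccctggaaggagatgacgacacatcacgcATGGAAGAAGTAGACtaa
Hsp90ab1: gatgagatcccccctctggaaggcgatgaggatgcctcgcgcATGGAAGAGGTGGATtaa

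Promoter windows from 250 bases before to 50 after the RefSeq start (GRCm38.p6) were available for 6 members, Hsp90aa1 and Hsp90ab1 not being among them. They were searched, on both strands, for GAA and TTC units in alternating orientation with 2 bases between units; 15.1% of all 32851 windows held 2 such units in a row and 0.603% held 3, and longer runs contain overlapping shorter ones. The stretches that matched are shown with their units in capitals, to set beside the values of each gene; the windows of Ahsa1, Stip1 and Ptges3 held none. Chordc1, shown at chr9:18292260-18292289 on the plus strand, had 5 alternating units from base -4 to base 19 of the RefSeq start, which is bases 139 to 161 of its GENCODE transcript, in the 5′ UTR, and a further 2 units from 34 to 41 that are not shown. Fkbp4, at chr6:128438770-128438837 on the minus strand, had 2 units from -151 to -144. Cdc37, at chr9:21150067-21150134 on the minus strand, had 2 units from -170 to -163. Each match describes these letters only, and binding was not measured.
Chordc1: ccgGAAcgTTCggGAAaaTTCctGAAgcag
Fkbp4: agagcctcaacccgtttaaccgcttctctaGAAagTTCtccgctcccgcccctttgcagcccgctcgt
Cdc37: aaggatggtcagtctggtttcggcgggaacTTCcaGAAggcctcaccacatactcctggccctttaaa

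The 12 libraries held 34715506 to 46074052 counts, and no pair from a time point agreed within counting noise (chi-square over its degrees of freedom was 16.8 to 100.5), so none was taken as a repeat. Counts for Cry1 (202 to 544 per library) and Cry2 (462 to 819) were low but not 0; a gene total does not show whether those reads lie in the deleted part, so they do not check the label. The 7 hepatocyte markers, Alb among them, summed to 76370 to 85470 CPM at night and 82380 to 110000 CPM by day. Summed markers of acinar, erythroid, lymphocyte, Kupffer, endothelial, stellate, bile duct and neutrophil cells overlapped between night and day, and no marker in the table was at 0 in all libraries. Within ZT02 and ZT06 the 2 libraries were less alike than same-numbered libraries across those times. Centred log2 CPM over 9876 genes correlated at 0.485 between ZT02 replicate 1 and ZT06 replicate 1. It correlated at 0.494 between ZT02 replicate 2 and ZT06 replicate 2, but at 0.152 within ZT02 and 0.0684 within ZT06. Libraries with unlike numbers correlated at 0.0237 (ZT02 replicate 1 with ZT06 replicate 2) and 0.108 (ZT02 replicate 2 with ZT06 replicate 1). ZT02 replicate 2 and ZT06 replicate 2 were also the lowest libraries of the 12 for 7 of the members, all but Cdc37, so the night minus day differences and cosine ranges of the called members are given with and without both. Because the labels do not say that libraries are separate animals, p-values measure only the spread between these libraries.

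6 of the 8 genes changed over the day, with a high at ZT14 and ZT18, and 2 did not pass the test. A fitted 24 h cosine was called (edgeR quasi-likelihood test, Benjamini-Hochberg adjusted p under 0.05 over all genes) for Hsp90aa1, Hsp90ab1, Ahsa1, Stip1, Fkbp4 and Chordc1, 6 of 8 members, where 12.0% of all genes were called. The test of any difference among the 6 time points called the same 6 genes, against 4.82% of all genes, and the night minus day contrast called them as higher at night, against 4.80% of all genes called higher. The members were chosen with earlier results of these data known, so the shares of all genes are given for scale only. Without ZT02 replicate 2 and ZT06 replicate 2 the same 6 members were called in each of these 3 tests. The test of any difference depended on single libraries, and leaving out 1 leaves only 1 library at that time. It called the fewest members without a ZT18 library. Fewer members were also called without either ZT14 library, ZT02 replicate 2 or ZT22 replicate 1. Hsp90aa1 and Chordc1 both lost this call when any 1 of the ZT14 or ZT18 libraries was left out. The members' median night minus day difference was 0.68 on the log2 scale, and the median over all 17142 genes was 0.0072. The range of the cosine, its fitted peak over its fitted trough, had in the edgeR fit a median of 2.02-fold over the members and 1.31-fold over all genes. Values are CPM, the count of a gene per TMM-scaled library total, a level that depends on transcript length, so levels of different genes are compared only where length is divided out. In bulk tissue, fewer cells of a type and less RNA per cell cannot be told apart.

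The 8 genes summed to 1448 to 2397 CPM at night, with a median of 2088, and to 1001 to 1294 CPM by day, with a median of 1246. Per kilobase of the main transcript, the mean level over the 12 libraries was highest for Hsp90ab1, at 310.4 CPM per kb with a library range of 216.3 to 470.3. Fkbp4 followed at 83.0 (52.8 to 123.0) and Hsp90aa1 at 71.8 (21.6 to 138.4), and then Ptges3 at 57.4 (50.1 to 65.8), Ahsa1 at 55.2 (39.0 to 78.0) and Stip1 at 41.0 (20.2 to 68.9) CPM per kb. Chordc1 at 7.16 (3.16 to 13.3) and Cdc37 at 6.92 (6.47 to 7.54) CPM per kb were lowest, but their main transcripts, of 5789 and 7851 bases, are mostly noncoding, with coding sequences of 996 and 1140 bases, so their levels depend on the transcript taken. The ranges of neighbours in this order overlapped, apart from Hsp90ab1 above Fkbp4 and Stip1 above Chordc1.

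**Figure D1:**
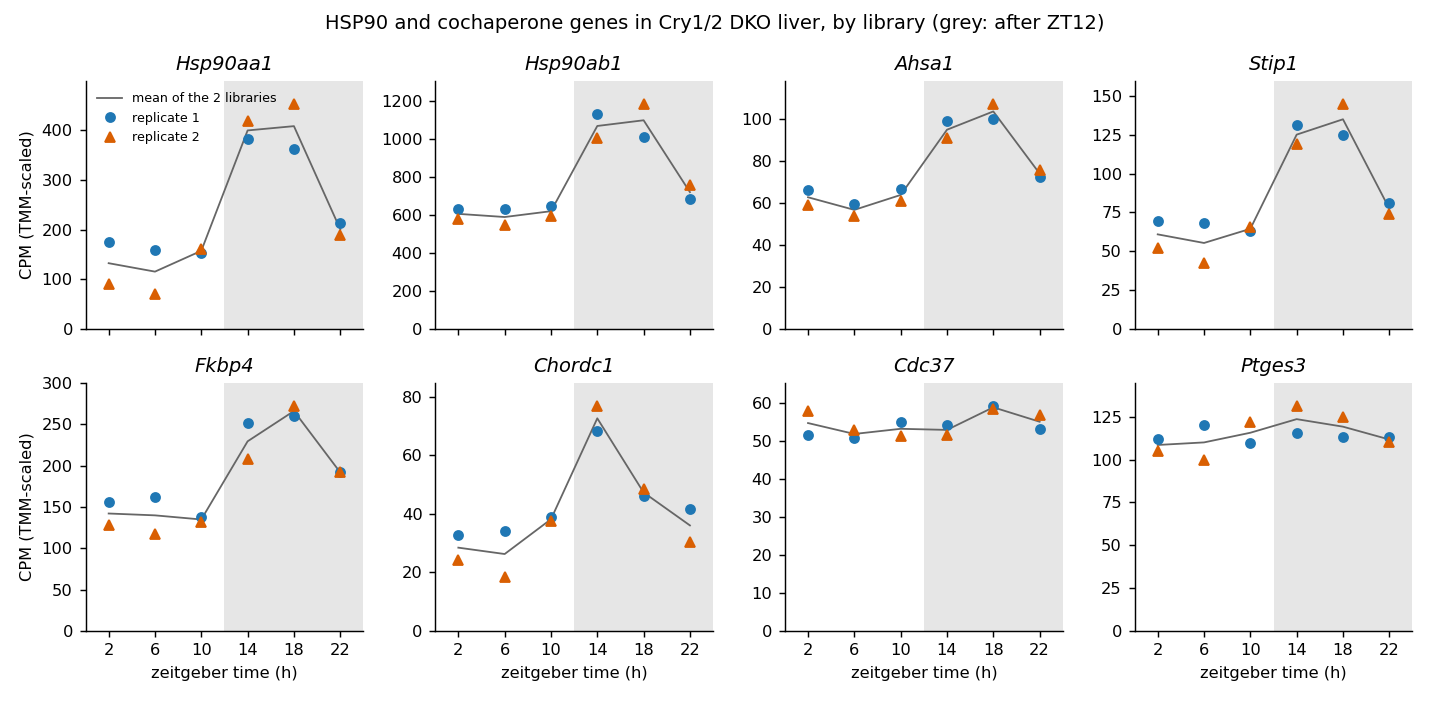
CPM of the 8 genes (vertical axes, each from 0) against zeitgeber time in hours; circles are replicate 1, triangles replicate 2, and the line joins the mean of the 2 libraries. The 6 genes from Hsp90aa1 to Chordc1 are highest at ZT14 or ZT18, while Cdc37 stays within 50.8 to 59.2 CPM and Ptges3 within 100.1 to 131.6 CPM.

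Hsp90aa1, the inducible form, had the largest range of the 8. Its CPM in replicates 1 and 2 was 174.9 and 89.3 at ZT02, 159.3 and 71.0 at ZT06, 152.4 and 161.7 at ZT10, 381.7 and 417.9 at ZT14, 362.9 and 454.0 at ZT18, then 212.8 and 188.4 at ZT22. All 6 night libraries were above all 6 day libraries, and the 4 libraries of ZT14 and ZT18 stood above every other. The mean was 336.3 ± 109.9 CPM at night and 134.7 ± 43.3 CPM by day (SD, n = 6 each), a log2 difference of 1.26 with an SE of 0.20 and an edgeR adjusted p of 0.0059. The fitted range was 4.31-fold, with a 95% interval of 2.57 to 7.22, and the peak ZT16.6 with an SE of 0.60 h. Without ZT02 replicate 2 and ZT06 replicate 2 the log2 difference was 0.97 with an edgeR adjusted p of 0.0032.

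Hsp90ab1, the constitutive form, moved less on a higher level. It had 631.1 and 577.8 CPM at ZT02, 630.6 and 545.1 at ZT06, 644.9 and 592.1 at ZT10, 1128 and 1006 at ZT14, 1009 and 1185 at ZT18, then 682.3 and 755.1 at ZT22. The 6 day libraries lay close together and below every night library. It averaged 961.0 ± 201.3 CPM at night and 603.6 ± 38.5 CPM by day (SD, n = 6 each), a log2 difference of 0.65 with an SE of 0.08 and an edgeR adjusted p of 0.0021. The fitted range was 2.01-fold (95% interval 1.60 to 2.52) with a peak at ZT16.6 and an SE of 0.55 h. The log2 difference was 0.59 when ZT02 replicate 2 and ZT06 replicate 2 were left out, with an edgeR adjusted p of 0.015. It was among the genes with the smallest p of the night minus day contrast, at rank 48 of 17142.

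The α gene made up more of the cytosolic HSP90 mRNA in most night libraries than by day. With counts divided by the length of the main transcript (3281 bases for Hsp90aa1 and 2520 for Hsp90ab1), Hsp90aa1 made up 16.1% to 24.2% of the sum at night, with a median of 21.1%, and 9.09% to 17.6% by day, with a median of 15.8%. The highest shares were in ZT14 replicate 2 and ZT18 replicate 2, the lowest in ZT06 replicate 2 and ZT02 replicate 2, and the ranges overlapped through ZT22 replicate 2. The log2 ratio of Hsp90aa1 to Hsp90ab1 counts in the same library was 0.68 higher at night, with a mean of -1.56 ± 0.26 at night and -2.24 ± 0.46 by day (SD, n = 6 each). An exact two-sided permutation test over the 924 arrangements gave an adjusted p of 0.020 over the 7 ratios to Hsp90ab1. Without ZT02 replicate 2 and ZT06 replicate 2 the difference was 0.39 with an adjusted p of 0.078 in the same exact permutation test, and the call also ended, at adjusted p of 0.051 to 0.056, without ZT14 replicate 2, ZT18 replicate 1 or ZT18 replicate 2.

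Stip1, the adaptor between HSP70 and HSP90, ran closest to Hsp90aa1. Its CPM was 69.8 and 52.0 at ZT02, 68.1 and 42.6 at ZT06, 63.2 and 65.7 at ZT10, 131.5 and 119.0 at ZT14, 125.0 and 145.3 at ZT18, then 80.8 and 74.3 at ZT22. No day library reached the lowest night library, and both replicate 2 libraries of ZT02 and ZT06 were below the other 4 of the day. It averaged 112.7 ± 28.6 CPM at night and 60.2 ± 10.7 CPM by day (SD, n = 6 each), a log2 difference of 0.86 with an SE of 0.12 and an edgeR adjusted p of 0.0031. Without the 2 lowest day libraries the difference was 0.70 with an edgeR adjusted p of 0.0049. The range was 2.64-fold (95% interval 1.91 to 3.64), the peak ZT16.7, and the ratio to Hsp90ab1 was 0.24 higher at night on the log2 scale, with an exact permutation adjusted p of 0.057.

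Ahsa1, the activator of the ATPase, had a smaller range than Hsp90aa1 but little scatter. It had 66.2 and 59.2 CPM at ZT02, 59.7 and 53.7 at ZT06, 66.6 and 61.0 at ZT10, 99.1 and 90.7 at ZT14, 99.9 and 107.4 at ZT18, then 72.3 and 75.7 at ZT22. Night and day did not overlap, and the 2 libraries of each time point lay close together. It averaged 90.9 ± 14.1 CPM at night and 61.1 ± 4.85 CPM by day (SD, n = 6 each), a log2 difference of 0.56 with an SE of 0.06 and an edgeR adjusted p of 0.0015. The cosine accounted for 90.7% of its variance on the log2 scale, the highest share of the 8, with a range of 1.84-fold (95% interval 1.59 to 2.13), a peak at ZT17.0 and an edgeR adjusted p of 0.0025. Without ZT02 replicate 2 and ZT06 replicate 2 the night minus day log2 difference was 0.51 with an edgeR adjusted p of 0.011.

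Fkbp4, the prolyl isomerase of receptor complexes, had the latest fitted peak of the 6 called genes. It had 156.0 and 128.2 CPM at ZT02, 162.6 and 117.1 at ZT06, 138.2 and 131.5 at ZT10, 251.2 and 207.9 at ZT14, 259.7 and 272.8 at ZT18, then 191.8 and 191.9 at ZT22. Its ZT22 libraries stayed above every day library. It averaged 229.2 ± 36.2 CPM at night and 138.9 ± 17.3 CPM by day (SD, n = 6 each), a log2 difference of 0.71 with an SE of 0.09 and an edgeR adjusted p of 0.0027. The range was 2.05-fold (95% interval 1.60 to 2.64) and the peak ZT17.6 with an SE of 0.59 h. With ZT02 replicate 2 and ZT06 replicate 2 left out, the log2 difference was 0.60 with an edgeR adjusted p of 0.0097. Differences between peak times were not tested.

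Chordc1, the zinc-binding cochaperone with the run of 5 heat shock units shown above, had the earliest fitted peak of the 6 called genes. It had 32.6 and 24.2 CPM at ZT02, 34.2 and 18.3 at ZT06, 38.8 and 37.4 at ZT10, 68.2 and 76.9 at ZT14, 46.1 and 48.4 at ZT18, then 41.5 and 30.5 at ZT22. The ZT14 libraries stood alone at the top, and day and night overlapped because both ZT10 libraries and other day libraries were above ZT22 replicate 2. It averaged 51.9 ± 17.4 CPM at night and 30.9 ± 8.03 CPM by day (SD, n = 6 each), a log2 difference of 0.71 with an SE of 0.15 and an edgeR adjusted p of 0.016. The call rests on few libraries: without ZT18 replicate 2 the difference was 0.69 with an edgeR adjusted p of 0.0503, and without the 2 lowest day libraries it was 0.52 with an edgeR adjusted p of 0.033. The range was 2.52-fold (95% interval 1.65 to 3.86), with a peak at ZT15.4 and an SE of 0.77 h.

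The cosine ranges of 5 of the 6 called genes were smaller without ZT02 replicate 2 and ZT06 replicate 2. In the edgeR fit, Hsp90aa1 had a range of 3.14-fold without them and 4.01-fold with them, Stip1 2.31-fold without and 2.59-fold with, and Chordc1 2.12-fold without and 2.48-fold with. Fkbp4 had 1.90-fold without and 2.03-fold with, Ahsa1 1.81-fold without and 1.84-fold with, and Hsp90ab1 2.01-fold both ways. All 6 stayed called without them, at edgeR adjusted p of 0.021 to 0.041.

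Cdc37, the kinase loader, and Ptges3, the p23 that binds the closed form, did not pass any of the tests over time. Cdc37 had 51.5 and 57.8 CPM at ZT02, 50.8 and 52.7 at ZT06, 55.0 and 51.2 at ZT10, 54.1 and 51.5 at ZT14, 59.2 and 58.3 at ZT18, then 53.1 and 56.9 at ZT22. It averaged 55.5 ± 3.07 CPM at night and 53.2 ± 2.72 CPM by day (SD, n = 6 each), and its cosine range was 1.10-fold with a 95% interval of 1.01 to 1.20 and an edgeR adjusted p of 0.42. Its highest library was 1.17 times its lowest. Ptges3 had 112.3 and 104.9 CPM at ZT02, 120.1 and 100.1 at ZT06, 109.7 and 121.8 at ZT10, 115.8 and 131.6 at ZT14, 113.4 and 125.2 at ZT18, then 113.4 and 110.2 at ZT22. It averaged 118.3 ± 8.30 CPM at night and 111.5 ± 8.43 CPM by day (SD, n = 6 each), and its range was 1.14-fold with a 95% interval of 1.01 to 1.28 and an edgeR adjusted p of 0.31. For both, night and day overlapped over most of their span, and the intervals end below the fitted ranges of the 6 called genes. A fitted peak is never below its trough by construction, so intervals that leave out a flat course do not show a rhythm.

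**Figure D2:**
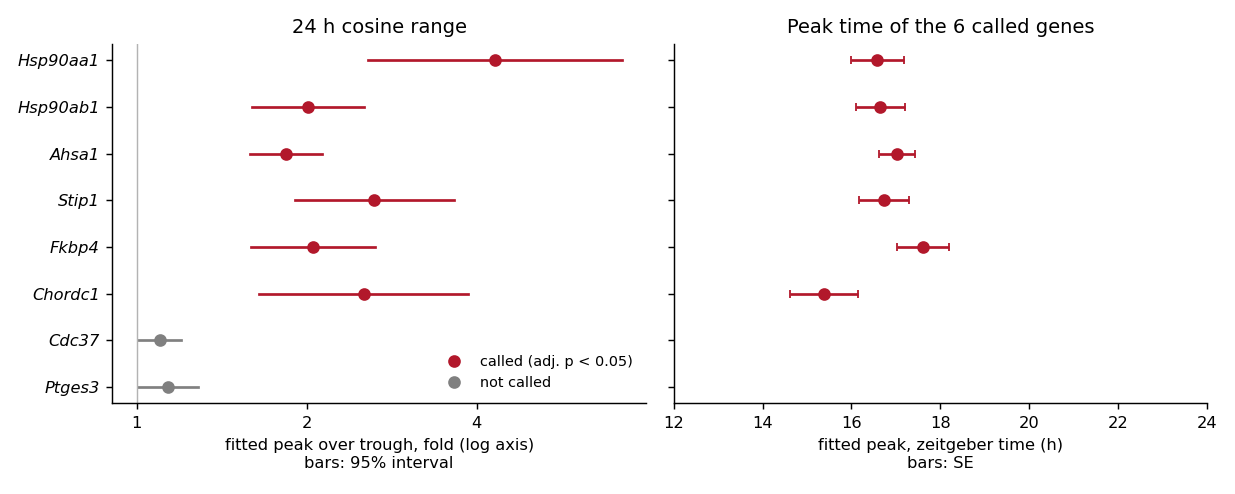
Left, fitted peak over trough of the 24 h cosine for each gene (horizontal log axis, fold) with its 95% interval; right, fitted peak time (horizontal axis, zeitgeber time in hours) of the 6 called genes with its SE. Ranges run from 1.10-fold for Cdc37 to 4.31-fold for Hsp90aa1, and peaks from ZT15.4 for Chordc1 to ZT17.6 for Fkbp4.

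The ratios of Cdc37 and Ptges3 to Hsp90ab1 in the same library were lower at night, which holds the night rise of Hsp90ab1 itself. Night minus day log2 differences of the genes alone were 0.06 for Cdc37, 0.08 for Ptges3 and 0.65 for Hsp90ab1. Only Hsp90ab1 was called, so these ratios do not show a night fall of Cdc37 or Ptges3. The log2 ratio of Cdc37 to Hsp90ab1 averaged -4.09 ± 0.31 at night and -3.50 ± 0.13 by day (SD, n = 6 each), a difference of -0.58, and that of Ptges3 averaged -2.996 ± 0.28 at night and -2.44 ± 0.09 by day, a difference of -0.56. Both had an adjusted p of 0.0076 in the exact permutation test, from an unadjusted p of 0.0022, which is the smallest that 924 arrangements can give. With 10 libraries, leaving out ZT02 replicate 2 and ZT06 replicate 2, the differences were -0.50 for Cdc37 and -0.57 for Ptges3, each with an exact permutation adjusted p of 0.05, which does not pass the threshold. The ratios of Ahsa1 (-0.08, adjusted p 0.16), Fkbp4 (0.07, adjusted p 0.46) and Chordc1 (0.08, adjusted p 0.70) did not pass the same exact permutation test. These 3 genes are therefore not shown to differ from Hsp90ab1 in their night to day change, nor shown to equal it.

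**Figure D3:**
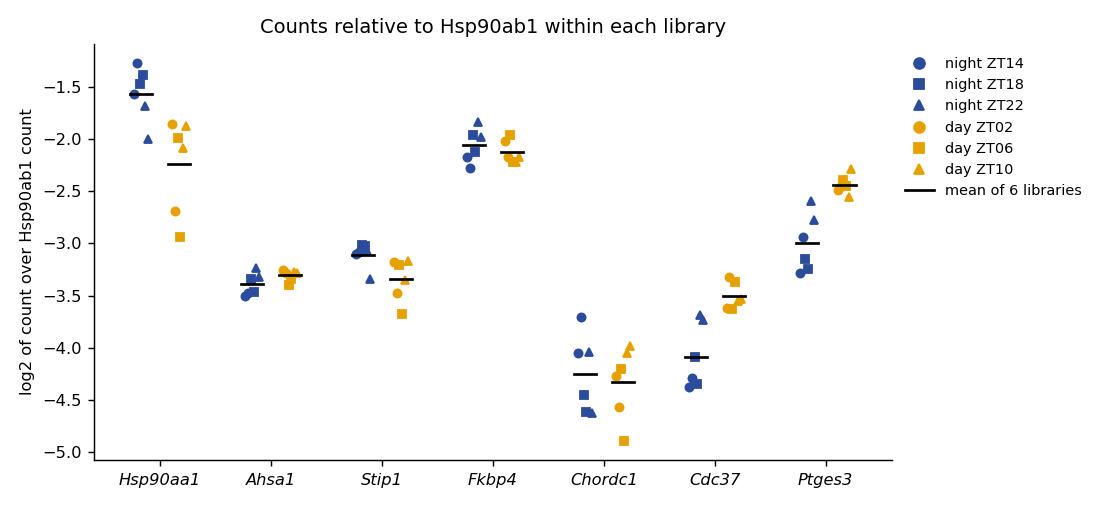
Log2 of each gene's count over the Hsp90ab1 count in the same library (vertical axis), for the 6 night libraries (blue, left) and the 6 day libraries (yellow, right) of each gene; bars are means and marker shapes are time points. Cdc37 and Ptges3 lie lower at night by 0.58 and 0.56, and Hsp90aa1 lies higher by 0.68 with ZT02 replicate 2 and ZT06 replicate 2 at the bottom.

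For the 6 called genes the step into the night was the largest change in mean CPM between neighbouring time points, but steps were not tested against each other. The fall from ZT18 to ZT22 was not tested and was nearly as large for Ahsa1 and Stip1. Means at ZT10, ZT14, ZT18 and ZT22 were 63.8, 94.9, 103.6 and 74.0 CPM for Ahsa1. For Stip1 they were 64.47, 125.2, 135.2 and 77.55 CPM. In ZT14 minus ZT10, 2 of 8 members were called as higher, against 0.723% of all genes: Hsp90ab1, at a log2 difference of 0.79 with an SE of 0.14 and an edgeR adjusted p of 0.029, and Ahsa1, at 0.57 with an SE of 0.11 and an edgeR adjusted p of 0.037. Both libraries of ZT14 were above both of ZT10 for the other genes called in the 24 h test too. Their edgeR adjusted p-values, however, were 0.0503 for Stip1 (log2 difference 0.96), 0.051 for Fkbp4 (0.77), 0.093 for Hsp90aa1 (1.35) and 0.10 for Chordc1 (0.93). The number called is not stable: it was 6 with DESeq2 or without ZT02 replicate 2 and ZT06 replicate 2, and 0 without either ZT10 library, ZT14 replicate 1 or either ZT18 library. Cdc37 and Ptges3 differed by -0.01 and 0.10 on the log2 scale. Markers of some other cells differed over this step. The 8 lymphocyte markers summed to only 1.83 and 2.91 CPM in the ZT14 libraries and 3.94 and 6.60 CPM in the ZT10 libraries. The 6 erythroid markers in the table summed to 308.0 and 278.0 CPM at ZT14 and 117.5 and 112.6 CPM at ZT10. Neutrophil sums were slightly higher at ZT14, while Kupffer, endothelial, stellate and bile duct sums overlapped. The 8 acinar markers in the table also overlapped, at 9.79 and 38.2 CPM at ZT14 and 15.6 and 6.35 CPM at ZT10, and the part of any of these in the result was not tested.

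ZT18 and ZT22 were each compared with ZT14, and edgeR with all libraries called no member in either comparison. For ZT18 minus ZT14, a comparison chosen after the values were seen, the log2 difference was 0.03 for Hsp90aa1, 0.04 for Hsp90ab1, 0.11 for Stip1, 0.13 for Ahsa1 and 0.21 for Fkbp4, but -0.62 with an SE of 0.25 for Chordc1. None of the 8 was called by edgeR, against 0.537% of all genes, with an adjusted p of 0.34 for Chordc1 and an unadjusted p of 0.031, the only one under 0.05; DESeq2 called none either. For ZT22 minus ZT14 the differences were -0.99 for Hsp90aa1, -0.57 for Hsp90ab1, -0.69 for Stip1, -0.36 for Ahsa1, -0.26 for Fkbp4 and -1.01 for Chordc1, so the late-night values lay under the early-night ones in each. No member was called lower by edgeR, against 0.449% of all genes, although the unadjusted p was under 0.05 for 5 of the 8. DESeq2 called 3 of them (Hsp90ab1, Stip1 and Chordc1), and edgeR without ZT02 replicate 2 and ZT06 replicate 2 called 3 (Hsp90aa1, Stip1 and Chordc1).

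A second peak within the day was not detected. Terms of 12 h added to the cosine were called for none of the 8 members and, with edgeR, for 0 of 17142 genes, while 1358 genes had an unadjusted p under 0.05 and DESeq2 called 40 genes, no member among them. The lowest unadjusted p of a member was 0.022, for Hsp90ab1, with an edgeR adjusted p of 0.59.

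The 6 genes called in the 24 h test also varied together over the libraries. Over the 12 libraries the 15 pairs among them had Pearson r of log2 CPM from 0.75 to 0.99 with a median of 0.94, and Spearman rho from 0.78 to 0.99. These values describe libraries that share their time points, so they were also taken within night (Pearson r 0.34 to 0.98, 6 libraries) and within day (0.60 to 0.99, 6 libraries). Night and day each still span several time points, so these values cannot separate a shared course over time from variation between libraries of a time. The within-day values rest on ZT02 replicate 2 and ZT06 replicate 2, the lowest libraries for all 6 genes: over the other 4 day libraries, too few for a firm value, Pearson r was -0.98 to 0.87 with a median of -0.05. Over the 10 libraries without those 2 it was 0.58 to 0.99, with a median of 0.94. Pairs of one of these genes with Cdc37 or Ptges3 had r from -0.03 to 0.80. The lowest pair among the 6 was Fkbp4 with Chordc1.

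Among the other genes averaging 5 CPM or more, the 2 whose log2 CPM ran most like the mean of the 8 members over the 12 libraries were Gm12346 (r = 0.99) and Gm5844 (r = 0.98), which are processed pseudogenes of Hsp90aa1. Gm12346, on chromosome 11, was 99.5% identical to the Hsp90aa1 transcript over 2254 aligned bases and shared 58.4% of its stretches of 100 bases with it; Gm5844, on chromosome 3, was 99.0% identical and shared 31.0%. Reads of Hsp90aa1 can be assigned to either, so their values are uncertain; they had 4.28% and 2.19% of the CPM of Hsp90aa1. Ptges3 has a pseudogene on chromosome 6 named Gm9769 in the table, identical to it at 100% of 480 aligned bases, with 13.3% of its CPM, so the Ptges3 level is uncertain too. Part of a Stip1 transcript, 65 stretches of 100 bases, is shared with Gtl3 (Cfap20), and no such row was found for Hsp90ab1, Fkbp4, Chordc1 or Cdc37. Ahsa1 shares 129 such stretches with Gm49207, a lincRNA gene on chromosome 15 that is not among the counted genes. The 2 were 99.6% identical over 267 aligned bases. The next most alike were Mlec, an ER lectin, at r = 0.97, Creld2, an ER stress-response chaperone, at 0.96, and Hnrnpc, Loh12cr1, Cct3, Ywhag, Pknox1 and Morf4l2 at 0.95 to 0.96. For Hsp90aa1 alone the 5 most alike were Gm12346, Gm5844, Phf6, Mlec and Cct3, a subunit of the TRiC chaperonin, at 0.95 to 0.99. For Hsp90ab1 alone they were Creld2 (0.98), Apba3, 1810009A15Rik, Mlec and Loh12cr1, at 0.96 or above.

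The other genes of the HSP90 system were read against shares of all genes of 12.0% for the 24 h cosine, 4.80% for higher at night and 4.89% for lower at night. Their lists, too, were chosen with earlier results of these data known. Calls in these lists come from the fit of all 12 libraries, and they are not given here without ZT02 replicate 2 and ZT06 replicate 2. Over all genes, fewer were called in the 24 h and night minus day tests without those 2 libraries. With libraries scaled by total counts alone, the night minus day calls were 1077 higher and 624 lower genes, where TMM scaling gave 823 higher and 839 lower. Of the 2 HSP90 forms outside the cytosol, Hsp90b1 (GRP94, of the ER) rose at night to 1011 ± 196.5 CPM, against 616.8 ± 94.6 CPM by day (SD, n = 6 each), with an edgeR adjusted p of 0.012 and a peak at ZT17.9. Trap1, the mitochondrial form, had 169.9 ± 9.10 CPM at night and 170.3 ± 12.0 CPM by day and was not called.

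Of 14 tested HSP70 and HSP40 partners of the HSP90 cycle, 9 were called in the 24 h test. In night minus day, 7 were called higher and none lower, with a median log2 difference of 0.52 over the 14. The 7 not called in night minus day ran from -0.37 for Hspa2 to 0.92 for Hspa1b. Hsph1 (HSP105, a nucleotide exchange factor) rose to 81.1 ± 50.1 CPM at night, against 32.9 ± 15.2 CPM by day, with an edgeR adjusted p of 0.0049. Bag3 (a nucleotide exchange factor) rose to 33.8 ± 21.7 CPM at night, against 15.9 ± 6.08 CPM by day, with an edgeR adjusted p of 0.011. Dnajb1 had 26.1 ± 10.4 CPM at night and 17.8 ± 5.05 CPM by day, and Dnaja1 178.4 ± 75.7 CPM at night and 110.6 ± 23.7 CPM by day, both HSP40s, with edgeR adjusted p of 0.0068 and 0.011 (SD, n = 6 each). All 4 had their highest mean at ZT14, as Chordc1 did; Hsph1 had means of 25.1, 23.4, 50.1, 142.6, 66.5 and 34.4 CPM at ZT02, ZT06, ZT10, ZT14, ZT18 and ZT22. Hspa1b, an inducible HSP70, was called in the 24 h test with an edgeR adjusted p of 0.013 and had means of 3.95, 5.86, 10.9, 96.2, 4.84 and 3.74 CPM at the same times. Hspa8, the constitutive HSC70, rose at night by 0.53 on the log2 scale with an edgeR adjusted p of 0.043, and its mean was 1824 CPM at ZT14 and 469.6 to 766.8 CPM at the other times.

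The remaining 25 cochaperones were split: 6 were called in the 24 h test, 3 were higher and 4 lower at night, and their median night minus day difference was -0.01. Unc45a, a chaperone of myosin, rose to 15.7 ± 1.91 CPM at night, against 10.3 ± 1.34 CPM by day (SD, n = 6 each), with an edgeR adjusted p of 0.0062 and a peak at ZT17.9. Ahsa2, the paralog of Ahsa1, rose to 48.0 ± 9.58 CPM at night, against 36.5 ± 6.72 CPM by day, with an edgeR adjusted p of 0.0086, and Cacybp, the calcyclin-binding protein, rose to 35.7 ± 8.38 CPM, against 25.4 ± 5.23 CPM by day, with an edgeR adjusted p of 0.040. The 4 that fell at night, Fnip1, Fnip2, Flcn and Tsc1, belong to the folliculin and tuberous sclerosis complexes of mTORC1 signalling, which also bind HSP90. Fnip1 had 59.3 ± 9.94 CPM at night and 99.0 ± 15.9 CPM by day, with an edgeR adjusted p of 0.0059, and Fnip2 59.2 ± 7.95 CPM at night and 84.1 ± 17.5 CPM by day, with an edgeR adjusted p of 0.012 (SD, n = 6 each). None of the 7 genes of the R2TP and TTT complexes, which work with HSP90 on large kinases and polymerases, was called in the 24 h or night minus day tests by edgeR; the 2 with the most CPM, Pih1d1 and Tti1, a choice that takes no account of length, had log2 differences of -0.06 and 0.15.

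Of the heat shock factors themselves, none passed the tests. Hsf1 had 12.7 ± 0.97 CPM at night and 12.3 ± 1.03 CPM by day (SD, n = 6 each), a log2 difference of 0.05 with an SE of 0.08 and an edgeR adjusted p of 0.73. Of the 5 heat shock factors and regulators tested, none was called in the 24 h test, and the 1 called higher at night was Hsf2bp, at 1.19 ± 0.52 CPM at night and 0.57 ± 0.29 CPM by day, an HSF2-binding protein best known from meiosis. The 2 with the most CPM, Hsbp1 and Hsf2, had log2 differences of -0.03 and -0.16. Protein and activity of HSF1 were not measured.

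No tested client gene was called higher at night by edgeR, where 4.80% of all genes were called higher and 4.89% lower. At such shares few calls would arise among 22 and 10 tested clients, so the lack of higher genes is not read as a result. Of 22 kinase clients, 5 were called in the 24 h test, with 7 lower at night and none higher, with a median log2 difference of -0.17. Erbb3 fell to 120.2 ± 41.7 CPM at night, against 228.0 ± 48.8 CPM by day (SD, n = 6 each), with an edgeR adjusted p of 0.00037, and the insulin receptor gene Insr fell to 170.9 ± 8.71 CPM at night, against 217.3 ± 10.4 CPM by day, with an edgeR adjusted p of 0.0091. Met, the HGF receptor, and Eif2ak1, the heme-regulated kinase, fell by 0.31 and by 0.28 on the log2 scale, with edgeR adjusted p of 0.021 and 0.022. Of 10 tested receptor and transcription factor clients, 3 were called in the 24 h test, with 2 lower at night and none higher: Nr1i3 (CAR), with 232.6 ± 14.9 CPM at night and 424.7 ± 110.0 CPM by day and an edgeR adjusted p of 0.0084, and Ppara, with 137.3 ± 13.4 CPM at night and 196.9 ± 43.4 CPM by day and an edgeR adjusted p of 0.036. Esr1, called in the 24 h test with a range of 2.31-fold and a peak at ZT22.7, had a night minus day edgeR adjusted p of 0.096. Nr3c1, the glucocorticoid receptor and the classic client of Fkbp4 and Ptges3, had 138.5 ± 10.6 CPM at night and 152.5 ± 5.78 CPM by day and was not called. Trap1, Hspa1b, Hspa8, Fnip1, Flcn, Tsc1, Hsf1, Hsf2bp and Nr3c1 were named after their values were seen.

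**Figure D4:**
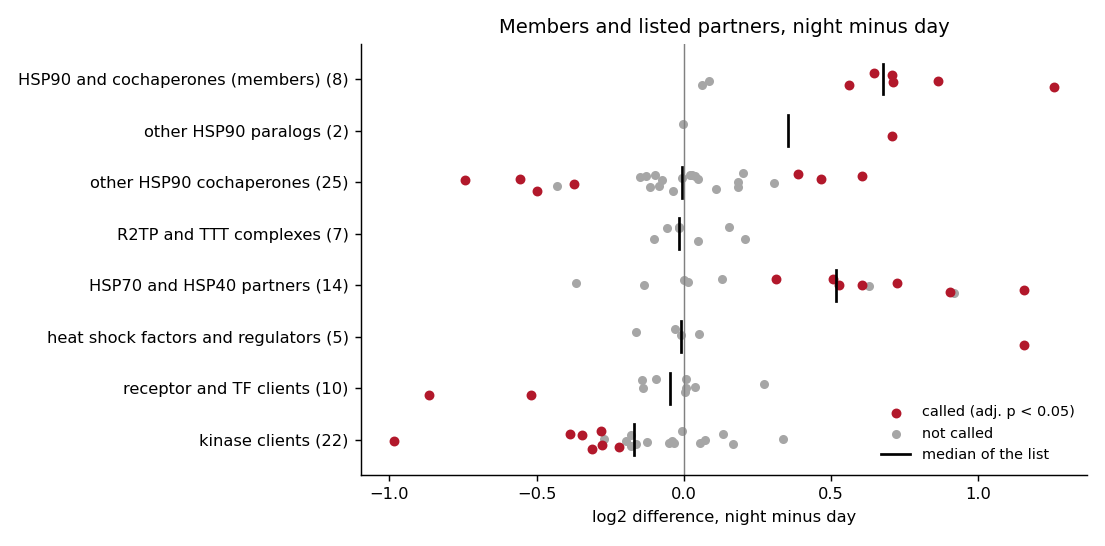
Night minus day log2 difference (horizontal axis) of each tested gene, one point per gene, for the 8 members and for lists of their partners and clients (rows, with the number of tested genes); red points were called at an edgeR adjusted p under 0.05, grey points were not, and the black bar is the median of each row. Called members and called HSP70 and HSP40 partners lie right of 0, while called kinase and receptor clients lie left of it.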

How the data were processed

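The libraries hold total RNA depleted of rRNA, with strand kept and both ends read, per the labels' protocols. The authors deposited the raw exon count of each gene, with no normalization. The submitters' processing notes name STAR 2.4.0i and mm10; how exons were counted, with which strand setting and annotation, is not given in the sources used here. Each library's time point came from its label. The members and gene lists were chosen with earlier results of these data known.

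The counts went into edgeR 4.0.16 (R 4.3.3) with TMM factors, filterByExpr (minimum count 10, minimum total 15), glmQLFit and glmQLFTest, and p-values were adjusted by Benjamini-Hochberg over 17142 genes. A fit of 6 time points gave contrasts and the test of any difference, and cosine fits gave the 24 h and 12 h tests. The SE of a contrast is its log2 value over the root of F. The members' own cosine ranges, intervals and peaks come from least squares on edgeR log2 CPM. A prior count of 2 on average, scaled to library size, was added to each count first. Ranges and peaks of other genes come from the edgeR fit. Ratios to Hsp90ab1, with exactly 2 added to each count, were compared by an exact two-sided permutation test. In the smallest library, a gene with no count could be at up to 0.0864 CPM (3 counts), for counting error only.

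GENCODE M21 held 22054 of the gene identifiers, and promoter sequences are RefSeq's. All members were named; of each list, up to 4 genes called in the 24 h test were named by smallest adjusted p, and the 2 with the highest mean CPM if no gene of the list was called; the report says which other names were picked with values known. Alternatives were RLE factors, total counts, no filter, DESeq2 1.42.0, a replicate block, 0.5 in place of 2 in the ratios, and libraries left out.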

Additional observations from a re-analysis of the deposited data

How the results depend on the processing

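The 24 h and night minus day tests called the same 6 members under every alternative tried, except that Chordc1 lost the night minus day call without ZT18 replicate 2 (0.69, edgeR adjusted p 0.0503). Scaling by RLE factors changed no member's call. Whether replicate numbers pair the libraries is not settled, and the main fits treated them as unpaired. Correlations between time points of same-numbered deviations ran from -0.222 to 0.501, the highest between ZT02 and ZT06, and 5 of 15 were over 0.1. A replicate block gave 6 members in the 24 h, any-time and night minus day tests, 4 in ZT14 minus ZT10, and 1 gene for the 12 h terms. Members called in ZT14 minus ZT10 were 4 with total counts, 1 without the filter, and 6 with DESeq2 or without a pair of ZT02 and ZT06 libraries (each of 3 pairs tried), and in ZT22 minus ZT14 they were 3 with DESeq2 and 3 without each of these pairs. With single libraries left out in turn, members called ranged from 2 to 6 for any time difference, 0 to 6 for ZT14 minus ZT10 and 0 to 1 for ZT22 minus ZT14.

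Genes called with DESeq2 were 3337 in the 24 h test, 2511 for any time difference, 715 for ZT14 minus ZT10, 415 for ZT22 minus ZT14, 361 for ZT18 minus ZT14 and 40 for the 12 h terms. Without ZT02 replicate 2 and ZT06 replicate 2, a setting chosen after seeing the data, they were 874 in the 24 h test, 530 for any time difference, 617 for night minus day, 9 for the 12 h terms and 55 for ZT18 minus ZT14. Without ZT02 replicate 2 and ZT06 replicate 1 they were 1276, 865 and 54 for the 24 h test, night minus day and ZT18 minus ZT14, and without ZT02 replicate 1 and ZT06 replicate 2 they were 568, 1107 and 55. With single libraries left out they ranged from 1201 to 2225 in the 24 h test, 174 to 897 for any time difference, 611 to 1818 for night minus day, 3 to 391 for ZT14 minus ZT10, 0 to 100 for ZT22 minus ZT14, 0 to 132 for ZT18 minus ZT14 and 0 to 1 for the 12 h terms.

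In the ratios to Hsp90ab1, leaving out ZT02 replicate 2 and ZT06 replicate 2 gave 0.39 for Hsp90aa1, -0.50 for Cdc37 and -0.57 for Ptges3, none of which passed the exact permutation test. With single libraries left out, the Hsp90aa1 difference was 0.53 to 0.76, its call ending without ZT14 replicate 2, ZT18 replicate 1 or ZT18 replicate 2, and that of Stip1 was 0.17 to 0.28, called without ZT02 replicate 1, ZT10 replicate 2 or ZT22 replicate 2. The cause of these changes was not tested. With 2 libraries per time point and 1 day sampled, differences between neighbouring times are measured with little precision.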
